A study of Mus musculus with 4 samples.

Results

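The early mesoderm and primitive streak factors are 10 transcription factor genes, T (Brachyury), Mesp1, Mesp2, Eomes, Mixl1, Gsc, Lhx1, Tbx6, Evx1 and Msgn1, chosen for their known role in gastrulation. They were followed here in cardiac progenitor cells (CPCs) with and without Isl1. They were found by symbol in the deposited transcript table, and 10 of 10 were present among 20701 gene symbols. For a symbol with several transcript entries the entry with the highest summed read count was kept, which mattered for 1 member, Eomes.

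RNA-Seq had been done on E14 Tg(Nkx2-5-EmGFP) mouse embryonic stem (ES) cells, in which Nkx2-5, the gene of a cardiac transcription factor, drives a green fluorescent protein. The cells were differentiated and sorted for the reporter on day 5, and all 4 libraries come from such sorted cells. The control group is 2 libraries of control clones and the Isl1_KO group is 2 libraries of Isl1-/- clones made with CRISPR/Cas9 and a pair of guide RNAs. By the methods, the libraries come from different clones of each genotype, so that a clone and a library cannot be told apart. The reporter gate selects cells by the activity of Nkx2-5, and in sorted bulk RNA fewer cells of a type and less RNA per cell cannot be told apart.

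The primitive streak is the site at which epiblast cells of the gastrula leave the surface layer and become mesoderm and endoderm. Nodal, Wnt and Bmp signals switch on the T-box factors T and Eomes and the homeodomain factor Mixl1 there, and Eomes and T in turn act on Mesp1, the basic helix-loop-helix (bHLH) factor of the earliest cardiac mesoderm. These genes are switched off as cells move on to a cardiac progenitor state, in which Isl1, Nkx2-5 and Mef2c are active. Gsc and Lhx1 mark the anterior streak and its axial and anterior mesendoderm derivatives, Evx1 the posterior streak, and Tbx6, Msgn1 and Mesp2 the presomitic mesoderm and the forming somites.

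Totals over 1 entry per gene were between 8821517 and 13186109 counts a library, with the control libraries the shallower. Isl1 was at 35.1 and 35.7 CPM (read counts scaled to library size) in control and at 1.31 and 2.08 CPM in Isl1_KO, as the labels say, and Nkx2-5 was at 21.1 and 19.8 CPM in control against 4.77 and 4.34 CPM in Isl1_KO. The libraries of a group were not equally close. Chi-square divided by its degrees of freedom, which is near 1 for counting error alone, came to 1.14 between the control libraries and to 18.7 between those of Isl1_KO, and edgeR's estimate of biological variation to 1.29% and 16.0% of the level. Since the members differ most between the Isl1_KO libraries, each of these is given apart throughout.

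Of the 10 streak genes, 5 stood well above control in 1 Isl1_KO library and not in the other. The summed level of the 10 genes was 54.1 and 55.7 CPM in the control libraries, 53.7 CPM in Isl1_KO replicate 1 and 203 CPM in Isl1_KO replicate 2. T, Eomes, Mixl1, Lhx1 and Mesp1 were between 3.10 and 6.81 times the control level in replicate 2. In replicate 1 the same 5 genes were between 0.618 and 1.41 times that level. Over both libraries, edgeR's quasi-likelihood test called 0 of the 7 members that had enough counts (adjusted p below 0.05), and it called 2.45% of 12715 genes. By the study's own criteria on DESeq2 (absolute log2 fold change over 0.58 and an unadjusted p under 0.05) 1 member was called, Eomes, with 5.89% of all genes. With an unadjusted p under 0.05 in edgeR's test there was 1 member, Eomes, and such a p was found for 23.3% of all genes.

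**Figure D1:**
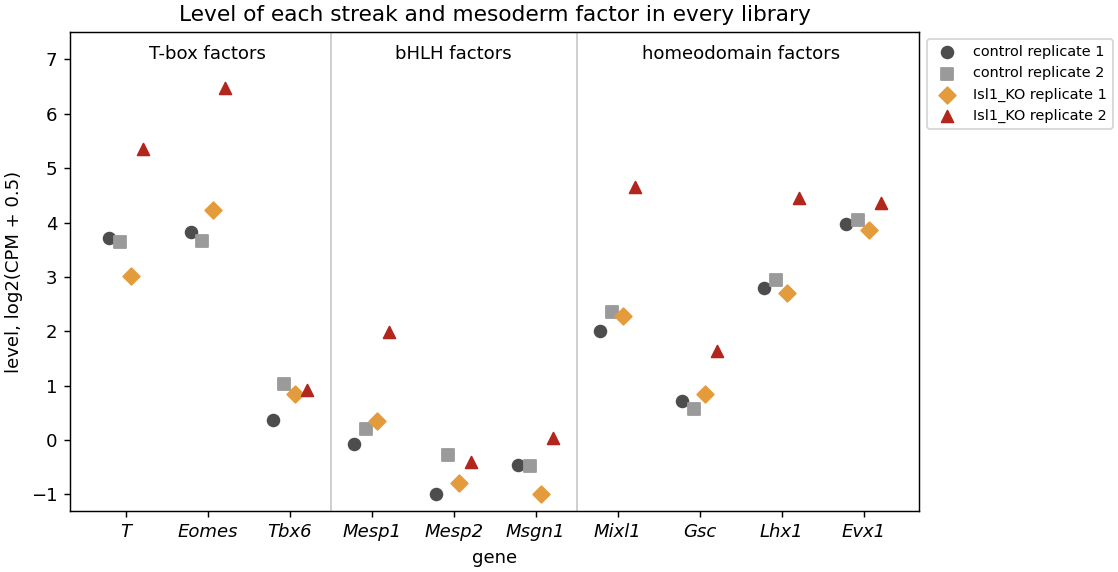
Level of each of the 10 genes in every library, as log2 of CPM plus 0.5, with 1 symbol per library and the genes grouped by protein family. Isl1_KO replicate 2 (triangles) lies above the other 3 libraries for 8 of 10 genes, while Isl1_KO replicate 1 (diamonds) lies close to control for most.

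The T-box factors bind DNA through the domain first described in Brachyury. T (chromosome 17, 8627288 to 8635361, plus strand; all positions follow GENCODE vM1 and the mm9 assembly, NCBIM37) is needed for the streak to form trunk mesoderm and for the notochord. It had 111 and 110 counts in control, 99 in Isl1_KO replicate 1 and 468 in Isl1_KO replicate 2, or 12.6, 12, 7.61 and 40.6 CPM. The Isl1_KO libraries thus lay on opposite sides of the control libraries, which were close to each other. Replicate 1 was at 0.618 times control (95% interval 0.483 to 0.787) and replicate 2 at 3.30 times (2.80 to 3.89). These and all further intervals of ratios are exact and cover counting error only. Both together gave a log2 fold change of 0.96 ± 0.75 (SE), at an edgeR adjusted p of 0.486.

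Eomes (chromosome 9, 118387330 to 118395250, plus strand), which acts in the streak on both cardiac mesoderm and definitive endoderm, was the most abundant member in Isl1_KO. It had 121 and 111 counts in control, 237 in Isl1_KO replicate 1 and 1015 in Isl1_KO replicate 2. On the CPM scale these were 13.7, 12.1, 18.2 and 88.1, so that both Isl1_KO libraries were above both control libraries. Replicate 1 was at 1.41 times control (1.17 to 1.70) and replicate 2 at 6.81 times (5.90 to 7.89). Isl1_KO over control gave a log2 fold change of 2.03 ± 0.75 (SE), at an edgeR adjusted p of 0.196. Its RefSeq entries NM_010136, kept here, and NM_001164789 share most reads, with 1015 and 985 counts in Isl1_KO replicate 2.

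Tbx6 (chromosome 7, 133924997 to 133929074, plus strand), a presomitic mesoderm factor that turns progenitors from a neural to a paraxial fate, did not follow T and Eomes. It had 7 and 14 control counts and 17 and 16 knockout counts, or 0.795 and 1.53 against 1.31 and 1.39 CPM. Both Isl1_KO values lay between those of control, and its log2 fold change came to 0.20 ± 0.42 (SE; edgeR adjusted p 0.808).

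The bHLH factors were the least abundant members in control, and none of the 3 had enough counts for the test over all genes. Mesp1 (minus strand of chromosome 7, 86937127 to 86938674) had 4 and 6 counts in control, 10 in Isl1_KO replicate 1 and 40 in Isl1_KO replicate 2. As CPM these were 0.454, 0.657, 0.769 and 3.47, and the groups did not overlap. Replicate 2 was at 6.23 times control (3.06 to 14), while the interval of replicate 1, from 0.515 to 3.69 times, held both a lower and a higher level. Without the filter on low counts Mesp1 had a log2 fold change of 1.89 ± 0.83 (SE) and an edgeR adjusted p of 0.273, and 0 of the 10 members passed, against 2.92% of all genes.

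Mesp2, which sets the boundaries of somites, lies 16939 bases from Mesp1 (chromosome 7, 86955613 to 86958317, plus strand) and stayed at the detection floor. It had 0 and 3 control counts and 1 and 3 knockout counts, and a floor of 3 counts corresponded to between 0.231 and 0.341 CPM. Msgn1 (minus strand of chromosome 12, 11215188 to 11215754), a presomitic factor, had 2 and 2 counts in control, 0 in Isl1_KO replicate 1 and 6 in Isl1_KO replicate 2. The count of 0 allows a level of up to 0.231 CPM. For both genes a difference between the groups was not detectable at this depth.

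The homeodomain factors included Mixl1, with the largest ratio between the Isl1_KO libraries among the 7 tested members. This gene (minus strand of chromosome 1, 182623174 to 182627165), a paired-type factor of the streak that acts in mesendoderm, had 31 and 42 counts in control, 57 in Isl1_KO replicate 1 and 285 in Isl1_KO replicate 2. The levels were 3.52, 4.60, 4.38 and 24.7 CPM, so replicate 1 lay between the control libraries and replicate 2 far above them. Replicate 2 was at 6.08 times control (4.69 to 7.97). Isl1_KO over control gave a log2 fold change of 1.83 ± 0.85 (SE), at an edgeR adjusted p of 0.272.

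Lhx1 (chromosome 11, 84331479 to 84338923, minus strand) encodes a LIM-homeodomain factor of the same protein class as Isl1. It had 57 and 66 counts in control, 78 in Isl1_KO replicate 1 and 245 in Isl1_KO replicate 2, or 6.47, 7.22, 6.0 and 21.3 CPM. Replicate 1 was a little below both control libraries, at 0.875 times control (0.650 to 1.17), an interval that included the control level. Replicate 2 was at 3.10 times control (2.49 to 3.88). Its log2 fold change came to 0.98 ± 0.61 (SE; edgeR adjusted p 0.386).

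Gsc (minus strand of chromosome 12, 105709419 to 105711537), a repressor of the organizer and anterior streak, had 10 and 9 control counts and 17 and 30 knockout counts. Its levels of 1.14 and 0.985 CPM in control and 1.31 and 2.60 CPM in Isl1_KO did not overlap, with replicate 2 again the higher. Replicate 2 was at 2.46 times control (1.34 to 4.62). The interval of replicate 1, from 0.603 to 2.51 times control, held both a lower and a higher level. The log2 fold change of Gsc came to 0.86 ± 0.47 (SE; edgeR adjusted p 0.334).

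Evx1 (chromosome 6, 52263492 to 52268372, plus strand), an even-skipped type factor of the posterior streak, was abundant in all libraries and differed little between them. It had 134 and 146 control counts and 183 and 232 knockout counts, or 15.2 and 16.0 against 14.1 and 20.1 CPM. Replicate 2 was at 1.29 times control (1.08 to 1.54) and replicate 1 at 0.902 times (0.744 to 1.09), and its log2 fold change came to 0.13 ± 0.20 (SE; edgeR adjusted p 0.746). An exon of Evx1 overlaps the noncoding gene 5730457N03Rik on the opposite strand. Since reads of both strands were counted together, reads of the pair cannot be told apart.

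Of the 10 genes, 3 (Eomes, Mesp1 and Gsc) had both Isl1_KO libraries above both control libraries and the other 7 overlapped. Both Isl1_KO libraries were above both control libraries for 29.1% of all genes tested. For Mesp1 and Gsc the interval of replicate 1 included the control level. Among the 7 tested members, whose control means ranged from 1.06 to 15.6 CPM, Isl1_KO replicate 1 was below and replicate 2 above the control mean for 3, T, Lhx1 and Evx1, as for 14.2% of all genes. Of these 3, only T had an interval of replicate 1 that excluded the control level. The median log2 fold change of the 7 was 0.96, against -0.0027 over all genes. Taken apart, the median log2 difference from control (CPM plus 0.5) was 0.099 in replicate 1 and 1.57 in replicate 2, against -0.0025 and 0.00045 over all genes. A level of at least 2 times control (on CPM plus 0.5) was reached by 4 members (T, Eomes, Mixl1 and Lhx1) in replicate 2, where 1.29% of all genes reached it, and by 0 members in replicate 1, where 0.26% did. By plain CPM Gsc reached it in replicate 2 as well, at 2.46 times control.

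**Figure D2:**
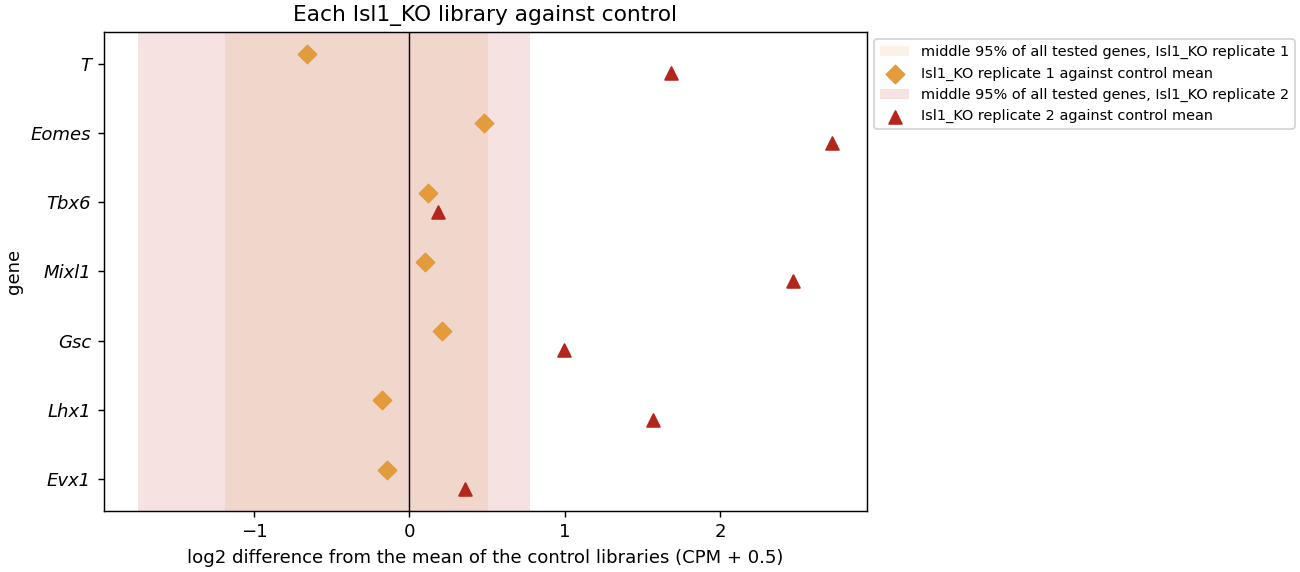
Log2 difference of each Isl1_KO library from the mean of the control libraries, on CPM plus 0.5, for the 7 tested members, over shaded bands that hold the middle 95% of all 12715 tested genes in each library. For replicate 2 (triangles) T, Eomes, Mixl1, Lhx1 and Gsc lie beyond the upper end of its band at 0.77, and for replicate 1 (diamonds) all 7 lie within its band of -1.19 to 0.51.

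The difference between the Isl1_KO libraries was then set against that of all genes. In Isl1_KO replicate 2, T was at 5.34 times its level in replicate 1 (4.29 to 6.70), Eomes at 4.83 times (4.19 to 5.59), Mixl1 at 5.64 times (4.23 to 7.64), Mesp1 at 4.51 times (2.22 to 10.1) and Lhx1 at 3.55 times (2.74 to 4.63). The same ratio was 1.99 for Gsc (1.06 to 3.85), 1.43 for Evx1 (1.17 to 1.75) and 1.06 for Tbx6 (0.502 to 2.24). Replicate 2 was above replicate 1 for all 10 genes, Mesp2 and Msgn1 at the floor included, as for 51.6% of all tested genes. Ordered by the log2 difference (CPM plus 0.5), Mixl1, T and Eomes were in places 3, 4 and 5 of the 12715 tested genes, and Lhx1 was in place 13. A ratio of at least 2 on this scale was found for 4 of the 7 tested members and for 1.11% of all tested genes. The order was looked at after the values had been seen, and it compares 2 libraries, not the genotypes.

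**Figure D3:**
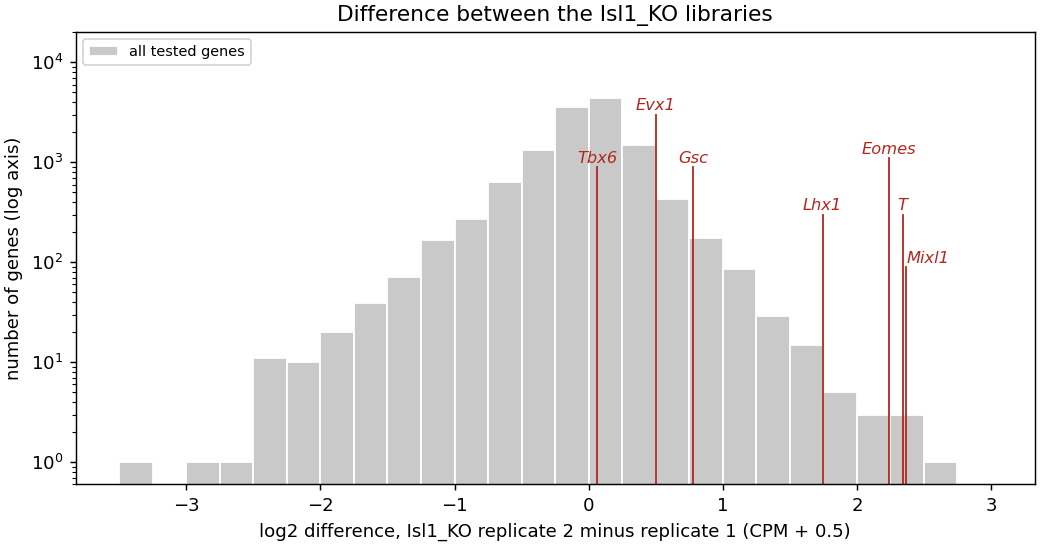
Number of tested genes (log axis) by the log2 difference between Isl1_KO replicate 2 and replicate 1 on CPM plus 0.5, with a line at the value of each of the 7 tested members. Mixl1 (2.37), T (2.34) and Eomes (2.24) stand at the upper end of the distribution, Lhx1 is at 1.74, and Tbx6 (0.064) is near its centre.

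When 1 Isl1_KO library was left out the fold changes moved far apart. Without Isl1_KO replicate 2 the log2 fold change of T was -0.69 (SE 0.18), that of Lhx1 -0.19 (SE 0.22) and that of Evx1 -0.15 (SE 0.14). Mixl1 was then at 0.11 (SE 0.27) and Eomes at 0.50 (SE 0.14). Without Isl1_KO replicate 1 they were 1.72 for T, 1.63 for Lhx1, 0.37 for Evx1, 2.60 for Mixl1 and 2.77 for Eomes. In these fits the spread comes from the close control pair alone and the lone Isl1_KO library is assumed to vary as little. In that setting 49.2% of all genes passed an adjusted p of 0.05 in edgeR's test without replicate 1, with 7 members among them, all higher (T, Eomes, Mesp1, Mixl1, Gsc, Lhx1 and Evx1), and 32.5% passed without replicate 2, with T (lower) and Eomes (higher) among them. Mesp1, left out of the main fit for low counts, passed the filter without replicate 1 through its 40 counts in replicate 2. Its control counts were 4 and 6. The filter thus let Mesp1 in by the library in which it was high, and no conclusion is drawn from its call. With 2 libraries against 2, an exact two-sided permutation test of a single gene cannot go below 0.333.

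**Figure D4:**
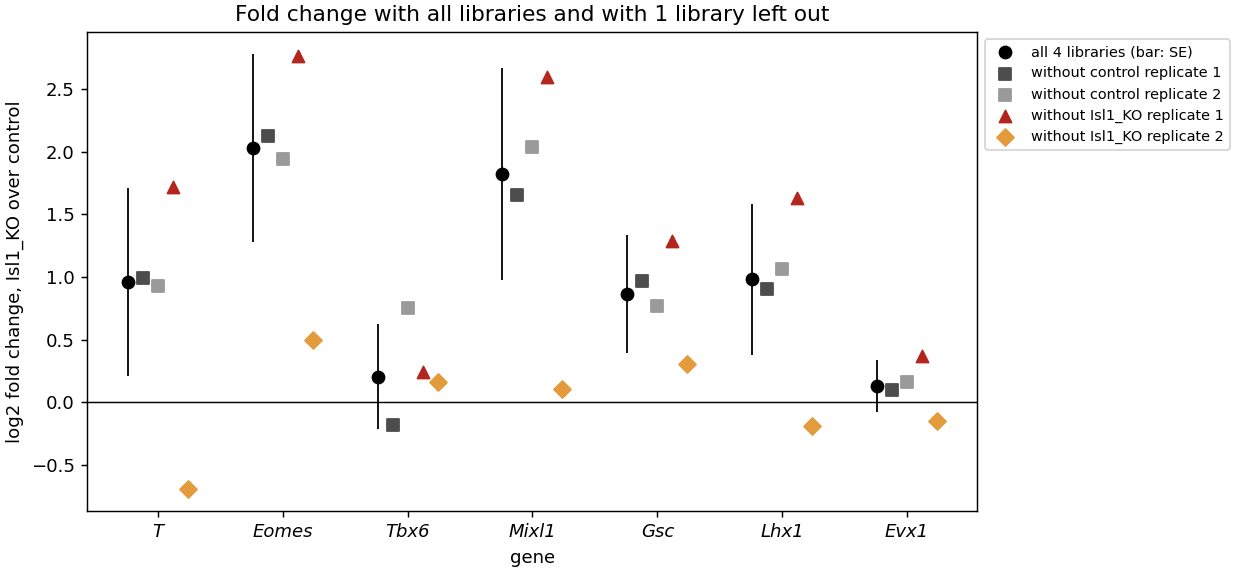
Log2 fold change of Isl1_KO over control for the 7 tested members, with all 4 libraries (circles, bars are 1 SE) and with 1 library left out. Leaving out a control library (squares) moved most values little, while leaving out Isl1_KO replicate 2 (diamonds) brought T to -0.69 and Eomes from 2.03 to 0.50.

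Levels of different genes were compared per length, with the authors' deposited RPKM (reads scaled to transcript length and library size). In control the order was T (3.41 ± 0.113 RPKM, SD, n = 2), Evx1 (3.07 ± 0.106), Eomes (1.97 ± 0.170), Lhx1 (1.41 ± 0.106), Mixl1 (1.00 ± 0.184), Gsc (0.510 ± 0.0566), Tbx6 (0.385 ± 0.177), Mesp1 (0.290 ± 0.0707), Msgn1 (0.225 ± 0.00707) and Mesp2 (0.05 ± 0.0707). The values of Gsc and Tbx6 overlapped, as did those of Tbx6 and Mesp1, and the other neighbours did not. The control counts were 4 and 6 for Mesp1, 2 and 2 for Msgn1 and 0 and 3 for Mesp2. These are too few to set the order of the last 3 genes. In Isl1_KO replicate 2 the order began with Eomes (13.9 RPKM), T (11.7 RPKM), Mixl1 (6.33 RPKM) and Lhx1 (4.53 RPKM), and Evx1 followed at 4.1 RPKM. Eomes then lay above 82.3% of all genes of the table, against 54.1% by its control mean.

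The members highest in Isl1_KO replicate 2 were also looked at in their promoter sequences, to show what these genes share or do not share next to their start sites. The RefSeq promoter table (GRCm38.p6) held 9 of the 10 genes, all but Mixl1. The 250 bases before the RefSeq start are shown for T, Eomes and Lhx1, which were high in replicate 2, and for Evx1, which differed little. Each was placed on NCBIM37 by exact match, T at chr17:8627038-8627287 (plus strand), Eomes at chr9:118387057-118387306 (plus strand), Lhx1 at chr11:84339037-84339286 (minus strand) and Evx1 at chr6:52263242-52263491 (plus strand). By the GENCODE positions given above, the windows of T and Evx1 end next to the annotated gene, while the gene begins 24 bases after the window of Eomes and 114 bases after that of Lhx1. The windows of Mesp1 and Gsc, which are counted but not shown, overlap the annotated gene. Capitals mark the matches, on either strand, to a T-box half-site (ACACCT), a Tcf/Lef site (CTTTGA), a Foxh1 site (AATNCACA), a TATA box (TATAAA) and a CCAAT box (CCAAT).
T: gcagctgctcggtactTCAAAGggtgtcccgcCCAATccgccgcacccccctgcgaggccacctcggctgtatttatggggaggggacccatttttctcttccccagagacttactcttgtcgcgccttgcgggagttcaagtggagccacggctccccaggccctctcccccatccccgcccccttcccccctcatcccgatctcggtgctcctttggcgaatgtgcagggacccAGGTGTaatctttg
Eomes: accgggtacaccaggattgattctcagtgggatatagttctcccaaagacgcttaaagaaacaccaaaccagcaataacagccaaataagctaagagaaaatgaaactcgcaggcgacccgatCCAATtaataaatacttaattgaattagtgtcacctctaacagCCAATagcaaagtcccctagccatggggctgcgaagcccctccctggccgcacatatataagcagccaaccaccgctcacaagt
Lhx1: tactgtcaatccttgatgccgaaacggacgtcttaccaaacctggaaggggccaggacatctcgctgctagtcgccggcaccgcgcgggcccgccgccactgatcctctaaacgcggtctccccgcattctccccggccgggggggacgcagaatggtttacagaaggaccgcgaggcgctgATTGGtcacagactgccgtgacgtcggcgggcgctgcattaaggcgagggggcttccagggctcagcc
Evx1: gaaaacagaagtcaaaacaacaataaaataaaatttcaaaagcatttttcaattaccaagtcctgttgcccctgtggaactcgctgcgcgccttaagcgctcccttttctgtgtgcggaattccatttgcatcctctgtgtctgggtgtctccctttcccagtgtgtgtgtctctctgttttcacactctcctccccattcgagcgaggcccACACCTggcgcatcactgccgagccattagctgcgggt

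The CCAAT letters were in the window of 3 of 9 members, T, Eomes and Lhx1, and in 33.8% of the 32851 promoters of the table. Mesp1, which was also high in Isl1_KO replicate 2, had no such match. A T-box half-site was found in 3 of 9 (T, Mesp1 and Evx1), against 11.8% of all promoters, and a Tcf/Lef site in 3 of 9 (T, Mesp1 and Msgn1), against 13.8%. In T the T-box half-site lay at -14 to -9 from the RefSeq start and the Tcf/Lef site at -234 to -229. The TATA letters were in 2 of 9 members, Gsc and Tbx6, against 12.4%, and the Foxh1 site in 0 of 9, against 3.18%. These are matches of letters in short windows, and binding was not measured here.

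Other genes of streak and mesoderm formation were taken from 5 lists, with 80 genes in all, of which 78 were in the table and 67 had enough counts. By edgeR's adjusted p, 1 of these was higher and 7 were lower in Isl1_KO, against 0.503% and 1.94% of all genes, and of the lower genes Mef2c and Smarcd3 (Baf60c) are ones the study discusses from these libraries. With either control library left out, only Mef2c of the 8 still passed.

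Among the signals of streak formation, a list of ligands, a co-receptor, processing enzymes and the antagonists Lefty1, Lefty2, Cer1 and Dkk1, 0 of 13 tested genes passed edgeR's test in either direction. Their median log2 fold change was 0.33, but between the Isl1_KO libraries 6 of the 13 were at least 2 times as high in replicate 2 (CPM plus 0.5), where 1.11% of all genes were. These were Tdgf1, Fgf8, Fgf5, Nodal, Wnt8a and the Nodal antagonist Lefty2. Wnt8a was near the floor, at 1 and 9 counts in control, 3 in replicate 1 and 14 in replicate 2. The median above is the log2 fold change of Wnt8a (SE 1.08). Tdgf1 (Cripto), the co-receptor of Nodal, was at 39.6 and 40.4 CPM in control, 3.31 CPM in Isl1_KO replicate 1 and 20.7 CPM in replicate 2, so that both Isl1_KO libraries were below control (log2 fold change -1.75, SE 0.71, edgeR adjusted p 0.223). Nodal itself was at 8.29 and 8.21 CPM in control, 5.84 CPM in replicate 1 and 16.0 CPM in replicate 2. Fgf8, which drives cells out of the streak, was at 6.13 and 6.13 CPM in control against 2.15 and 8.68 CPM. For Nodal and Fgf8 the Isl1_KO libraries lay on opposite sides of control, as for T. Lhx1 had the same order, but its interval in replicate 1 included the control level. The most abundant signals, Bmp4 and Furin, a protease that processes Nodal, were at log2 fold changes of -0.19 (SE 0.064) and -0.47 (SE 0.12).

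Of the 16 effectors of these signals, 1 passed and was higher, Foxh1, the forkhead partner of Smad2 in the Nodal response. Its level rose from 97.0 ± 4.57 to 159 ± 13.7 CPM (mean ± SD of 2 libraries), which is 0.71 ± 0.088 (SE) on the log2 scale with edgeR's adjusted p at 0.0306. The Isl1_KO libraries were close here, at 150 and 169 CPM. Without control replicate 1 or 2 the adjusted p of Foxh1 was 0.365 or 0.414 in edgeR's test. The abundant Ctnnb1 (beta-catenin) and Fgfr1 were at -0.13 (SE 0.095) and 0.29 (SE 0.064), and on CPM plus 0.5 none of the 16 differed 2 times or more between the Isl1_KO libraries. By plain CPM 1 did, Sp5, a Wnt target gene, at 3.61 CPM in replicate 1 and 7.37 CPM in replicate 2, a ratio of 2.04 (1.41 to 2.98). Both were above its control levels of 2.27 and 2.19 CPM (log2 fold change 1.29, SE 0.42, edgeR adjusted p 0.168).

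The 14 tested genes of ingression and of the epithelial to mesenchymal transition, by which streak cells leave the epiblast, held 1 lower gene. This was Twist1, a bHLH factor of mesenchyme, which fell from 52.6 ± 0.106 to 18.5 ± 6.20 CPM (mean ± SD of 2 libraries), which is -1.5 ± 0.23 (SE) on the log2 scale with edgeR's adjusted p at 0.0467. Fibronectin (Fn1) was at -0.35 (SE 0.067) and vimentin (Vim) at 0.042 (SE 0.18), and neither passed. None of the 14 was 2 times higher or lower in one Isl1_KO library than in the other.

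In the paraxial mesoderm list 1 of 11 tested genes passed, Foxc1, a forkhead factor of paraxial and cardiac mesoderm. Its level fell from 16.8 ± 0.0362 to 4.76 ± 1.09 CPM (mean ± SD of 2 libraries), which is -1.81 ± 0.20 (SE) on the log2 scale with edgeR's adjusted p at 0.0228. Dll1, Dll3 and Wnt5b were at least 2 times as high in Isl1_KO replicate 2 as in replicate 1 on CPM plus 0.5, and Cdx2 was the reverse (2.52% of all genes), at 140 CPM in replicate 1 and 69.0 CPM in replicate 2. By plain CPM Ripply1 was also lower in replicate 2, at 0.769 and 0.260 CPM, close to the floor. Rspo3, a Wnt agonist, was at 0.46 (SE 0.20) and did not pass.

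The genes of lateral and cardiac mesoderm that follow Mesp1 had 5 lower and 0 higher among 13 tested. These were Mef2c (log2 fold change -4.23, SE 0.22), Tbx5 (-3.62, SE 0.21), Hand2 (-1.71, SE 0.18), Smarcd3 (-1.15, SE 0.17) and Gata6 (-1.02, SE 0.13). Between the Isl1_KO libraries 0 of these 13 differed 2 times or more. Mef2c was at 11.5 and 6.85 CPM in Isl1_KO against 171 and 177 CPM in control. Pdgfra, a receptor of early mesoderm, was at -0.74 (SE 0.16, edgeR adjusted p 0.0862) and Hand1 at 0.24 (SE 0.13).

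Marker lists of the cells that the sort could hold moved between the Isl1_KO libraries as well. The 8 pluripotency markers summed to 131 and 129 CPM in control, 79.8 CPM in Isl1_KO replicate 1 and 104 CPM in replicate 2, with Tdgf1 part of that sum. Pou5f1, named after its values were seen, was at 5.45 and 5.91 CPM in control, 6.0 CPM in replicate 1 and 14.7 CPM in replicate 2. Dppa3 and Zfp42 stayed at or under 1.13 CPM. Of the 6 tested pluripotency markers, 4 were above the control mean in replicate 2 and 1 in replicate 1. Only 1 reached 2 times control in replicate 2 (CPM plus 0.5). The median log2 difference of these markers from control was -0.17 in replicate 1 and 0.18 in replicate 2. Between the Isl1_KO libraries, 5 of the 6 were higher in replicate 2, as were 51.6% of all genes. At least 2 times as high (CPM plus 0.5) were 3 of them, Tdgf1 included, against 1.11% of all genes. Their median log2 difference between these libraries was 0.92. The 6 definitive endoderm markers summed to 82.6 and 78.6 CPM in control against 63.3 and 79.2 CPM, and the 6 yolk sac endoderm markers to 66.2 and 68.4 CPM against 49.0 and 16.6 CPM. By the methods the ES cells were maintained on fibroblast feeders and were grown on gelatin for directed differentiation. The 6 fibroblast markers were at 658 and 663 CPM in control and at 642 and 290 CPM in Isl1_KO. Whether these reads came from feeders was not tested. The 7 endothelial and blood markers were at 505 and 518 against 448 and 336 CPM, and the 6 neural markers at 35.4 and 34.1 against 27.1 and 14.6 CPM. Of these lists, Runx1 was the 1 gene that passed edgeR's test (0.57, SE 0.073, adjusted p 0.0335, and 0.510 or 0.444 without control replicate 1 or 2), and Neurog1 and Dpt had 0 counts in all libraries, which allows up to 0.341 CPM. Cardiac progenitor markers summed to 751 and 765 CPM in control and to 356 and 396 CPM in Isl1_KO, with 5 of 8 lower. These were Mef2c, Tbx5 and Hand2, already counted in the list above, Nkx2-5, and Isl1, the gene that was knocked out. Cardiomyocyte markers summed to 1192 and 1272 against 27.3 and 21.7 CPM, with 5 of 5 tested lower. The part of these shifts in the values of the streak genes was not tested.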

How the data were processed

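RNA-Seq of 4 libraries gave transcript levels. Poly(A) RNA was made into stranded libraries, and the authors mapped the reads to mm9 with STAR (introns of 20 to 500000 bases) and counted exonic reads per RefSeq transcript with HOMER on both strands without adjustment. As deposited, the table lists counts of whole reads for 31507 transcript entries with 20701 symbols. The authors made the deposited RPKM values with edgeR, and they were used here for levels between genes. The deposited log2 fold changes and their errors, the Wald score, the p-value columns and the mean signal after DESeq2 size factors are the authors' own comparison and were not used. Versions of STAR, HOMER, DESeq2 and edgeR as the authors ran them were not given in the sources used here. The design text speaks of a knockdown, and the sample titles and methods of a knockout, which was followed.

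Here 1 entry per symbol was kept, holding 57.0% of all counts. Groups were compared in R 4.3.3 by glmQLFTest of edgeR 4.0.16 (TMM, filterByExpr, no covariate, two-sided). P-values were adjusted over 12715 genes by Benjamini-Hochberg, and 0.05 was the threshold. The SE was taken from the coefficient and its F statistic. CPM were scaled to effective library sizes. Errors of means are SDs (n = 2). Ratios of libraries have exact conditional 95% intervals (Clopper-Pearson), and intervals and the floor of 3 counts cover counting error only. Log2 differences of single libraries used CPM plus 0.5. DESeq2 1.42.0 was run as an alternative, and other tools were Python 3.11.15, scipy 1.17.1, pandas 2.3.3, numpy 2.4.6 and matplotlib 3.10.9. The fit was also run on simulated data, and no result given here rests on that run. Groups and replicate numbers came from the sample titles, and 0 columns of per-sample values were left unmatched. Whether the clones were also differentiated separately is not stated, so p-values measure the spread between these libraries. The main fit took 1 spread per gene for both groups. Since the estimates were 1.29% in control and 16.0% in Isl1_KO, that shared spread need not hold for either group.

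The members and lists were chosen with earlier results of these data known. Named are the 10 members, Isl1 and Nkx2-5, the listed mesoderm genes and markers past the threshold and the 2 most abundant genes of each mesoderm list. Genes named for their difference between the Isl1_KO libraries (such as Tdgf1, Nodal, Fgf8 and Pou5f1) were added after their values were seen. The symbols Epb4.1l5 and Foxf1a of the lists found no entry.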

Additional observations from a re-analysis of the deposited data

How the results depend on the processing

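The count of 0 members past the threshold stayed 0 under both other scalings, without a filter, with a mean CPM of at least 1, with DESeq2's adjusted p and with all transcript entries. With the study's own criteria on DESeq2 (absolute log2 fold change over 0.58, unadjusted p under 0.05) it was 1, Eomes, and 5.89% of all genes met them. Over all genes the count of 311 rose to 492 without a filter, to 604 with DESeq2 and to 993 with the study's criteria, and the 8 listed mesoderm genes became 17 with DESeq2. DESeq2 was run without edgeR's filter, so that tool and filter changed together. When 1 library was left out the counts ranged from 27 to 6350 for all genes, from 0 to 7 for members and from 1 to 56 for the listed genes, and the median log2 fold change of the 7 members from 0.11 to 1.63. The low counts came without a control library, when the spread rests on the Isl1_KO pair, and the high ones without an Isl1_KO library. The 7 members include Mesp1, which the filter had left out of the main fit. Without either control library the calls of Nkx2-5 and Actn2 were lost too (adjusted p between 0.108 and 0.158), and with all transcript entries that of Twist1 (0.0514). Of the members and the genes named by rule, those whose direction turned when a library was left out ranged from -0.69 to 1.72 (T), -0.19 to 1.63 (Lhx1), -0.19 to 0.75 (Tbx6), -0.15 to 0.37 (Evx1), -0.25 to 0.28 (Vim) and -0.32 to 0.70 (Cdx2). For Tbx6 this was control replicate 1, for the others an Isl1_KO library. Nodal, Fgf8, Fgf5, Lefty2, Dll1, Dll3 and Wnt5b, named for their difference between the Isl1_KO libraries, also had opposite directions without one and without the other.

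The numbers in the titles do not state a pairing, and deviations from the group means were nearly unrelated between libraries of one number (r = 0.014 over 12715 genes). With the replicate block 454 genes (294 of the 311), 0 members and 10 listed genes passed, and the median of the members was 0.80. In the order of differences between the Isl1_KO libraries, with 0.1 in place of 0.5 CPM added (chosen after the data were seen), Mixl1, T, Eomes and Lhx1 were in places 4, 5, 8 and 27. Depth limited Mesp2, Msgn1 and Mesp1 most.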

Other observations

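Beyond the streak genes, the genes with the largest differences between the Isl1_KO libraries were listed after their values were seen, in the direction of Isl1_KO replicate 2 over replicate 1 on CPM plus 0.5. The first was Ppp2r2c, a regulatory subunit of protein phosphatase 2A, at 2.16 and 1.64 CPM in control, 1.84 CPM in replicate 1 and 12.8 CPM in replicate 2. Tdgf1 was second, and Mixl1, T and Eomes followed. Lgr5, a receptor for R-spondins and a Wnt target gene, was in place 14, at 13.6 and 11.1 CPM in control, 25.4 CPM in replicate 1 and 80.9 CPM in replicate 2. Unlike T, Lgr5 had both Isl1_KO libraries above control, as Eomes did, at 2.10 ± 0.58 (SE) on the log2 scale and an edgeR adjusted p of 0.128.

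Of the 15 genes at the other end, 3 are given here, chosen after their values were seen. Hba-x, an embryonic globin, was at 98.3 and 97.7 CPM in control, 40.6 CPM in Isl1_KO replicate 1 and 3.64 CPM in replicate 2. Col3a1, a fibrillar collagen, was at 684 and 649 CPM in control, 429 CPM in replicate 1 and 55.4 CPM in replicate 2. The growth regulator Dlk1 was at 313 and 311 CPM in control and at 118 and 24.3 CPM in Isl1_KO. For these 3 genes both Isl1_KO libraries were below both control libraries, replicate 2 by more, and none passed edgeR's test (adjusted p of 0.222, 0.364 and 0.157). A ratio of at least 2 between the Isl1_KO libraries was found for 141 genes higher and 320 genes lower in replicate 2, against 13 and 16 for the control pair.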
